A study of Mus musculus with 10 samples.

Results

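A set of 10 genes of the fast-twitch skeletal muscle fibre was followed through 10 tumours. They are TNNC2 (ENSG00000101470), TNNT3 (ENSG00000130595), TNNI2 (ENSG00000130598), MYLPF (ENSG00000180209), MYL1 (ENSG00000168530), MYH1 (ENSG00000109061), MYH2 (ENSG00000125414), MYH4 (ENSG00000264424), ATP2A1 (ENSG00000196296) and PVALB (ENSG00000100362), and they make up 10 of the 33538 human gene identifiers in the deposited count table. The table itself gives identifiers only, and the names are those that came with the choice of the genes. The genes were selected on their names and on their read counts in these same tumours, namely the large difference between control and oil-fed tumours, so their levels by diet are a description and carry no test.

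The tumours grew from DAOY cells, a human medulloblastoma line long in culture, in the flank of female nude mice, which lack the T cells needed to reject a human graft. All mice had 30 days of treatment. The control group ate ordinary chow (n = 3), another group was treated with DHA oil, which supplies docosahexaenoic acid (n = 3), and the last with fish oil (n = 4), taken here as the arm that combines docosahexaenoic with eicosapentaenoic acid. The labels do not say which mouse gave which library, and the spread reported is the one between these samples. RNA came from lysed fresh-frozen tumour tissue, which can hold host cells as well as graft, and total counts ran from 6187116 to 10035702.

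A fast fibre contracts when calcium released from the sarcoplasmic reticulum binds troponin, which moves tropomyosin aside and lets myosin heads pull on actin. Fast fibres use their own versions of nearly every part: fast troponin C, T and I, fast myosin light chains, the IIx, IIa and IIb myosin heavy chains, the calcium pump SERCA1 and, in rodents above all, the calcium buffer parvalbumin. Most of these genes are used mainly in skeletal muscle. The question put to the data was whether the genes rise and fall together from tumour to tumour, as they would where muscle of the flank came with a graft. The counts are of human genes, and how mouse reads were handled is not given in the sources used here, so whether a read came from mouse or human cells was not tested. In these bulk samples a smaller number of muscle cells and less RNA per cell cannot be told apart.

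The summed level of the genes was dominated by 1 tumour. Control replicate 1 held 891 CPM for the 10 genes together, where CPM is counts scaled to a common library total. Control replicate 2 held 110 CPM and control replicate 3 held 174 CPM. The DHA oil tumours held 77.4, 44.97 and 45.8 CPM in replicates 1 to 3. The fish oil tumours held 37.5, 26.3, 65.3 and 32.9 CPM in replicates 1 to 4. Every control therefore lay above every oil-fed tumour, and the distance from control replicate 1 to the next control was far wider than the distance from the lowest control to the highest oil-fed tumour. By group, the summed level in control was 392 ± 434 CPM (SD, n = 3), while DHA oil had 56.1 ± 18.5 CPM (SD, n = 3) and fish oil had 40.5 ± 17.1 CPM (SD, n = 4), and the SD of the controls exceeded their mean. The log2 ratio of the mean of the oil-fed tumours to that of the controls was -3.05, and it was -1.60 without control replicate 1. Even in control replicate 1 the genes took only 0.0895% of all counts.

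**Figure D1:**
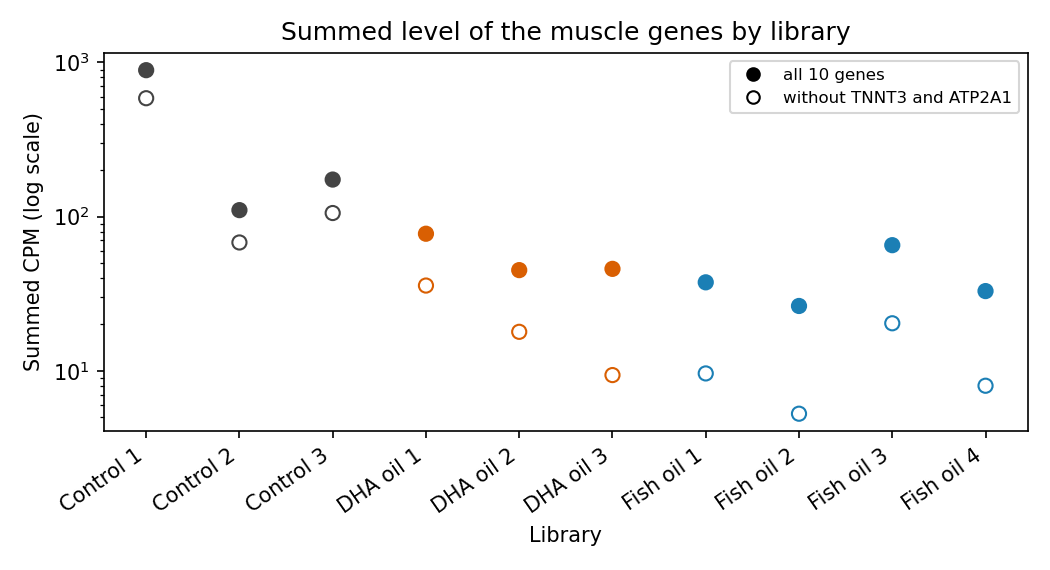
Summed CPM (vertical axis, log scale) of the muscle genes in each of the 10 libraries (horizontal axis), coloured by diet. Filled points are all 10 genes and open points leave out TNNT3 and ATP2A1. Control 1 stands at 891 CPM, and the oil-fed tumours lie between 26.3 and 77.4 CPM.

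The troponin genes came in 2 patterns. TNNC2 encodes fast troponin C, the subunit that binds calcium. It stood at 60.3, 5.49 and 13.1 CPM in control replicates 1 to 3, at 1.89, 1.76 and 0.948 CPM in DHA oil replicates 1 to 3, and at 0.640, 0.722, 0.912 and 0.901 CPM in fish oil replicates 1 to 4. All controls were above all oil-fed tumours, and the oil-fed tumours were close to each other. TNNI2, fast troponin I, the inhibitory subunit, had 59.6, 9.54 and 15.5 CPM in control, 6.27, 3.62 and 6.32 CPM in DHA oil and 3.52, 1.34, 4.43 and 2.14 CPM in fish oil. It again showed no overlap between control and oil-fed tumours, but a higher level remained with the oils than for TNNC2.

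TNNT3, fast troponin T, the subunit that ties the complex to tropomyosin, was the exception among the 10 genes. Its values were 139, 32.1 and 36.1 CPM in control, 32.9, 18.7 and 29.6 CPM in DHA oil and 21.5, 16.4, 36.9 and 20.2 CPM in fish oil. Apart from control replicate 1, the diets overlapped, and fish oil replicate 3 was above both other controls. The mean of control replicates 2 and 3 was 1.36 times that of the 7 oil-fed tumours for TNNT3, against 8.38 times for TNNC2 and 3.17 times for TNNI2.

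Both light chain genes separated control from oil-fed tumours, as TNNC2 did. MYLPF, the fast regulatory light chain, had 74.2, 15.8 and 9.68 CPM in control, 3.67, 0.587 and 0.316 CPM in DHA oil and 2.40, 1.24, 2.48 and 1.13 CPM in fish oil. Here DHA oil replicates 2 and 3, with 6 and 3 counts, were below all fish oil tumours. MYL1, the fast essential light chain, had 47.2, 6.93 and 6.36 CPM in control, 1.89, 2.25 and 0.632 CPM in DHA oil and 1.28, 0.516, 1.43 and 0.901 CPM in fish oil. Control replicates 2 and 3 were nearly equal for MYL1, and all controls were above all oil-fed tumours for both genes.

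**Figure D2:**
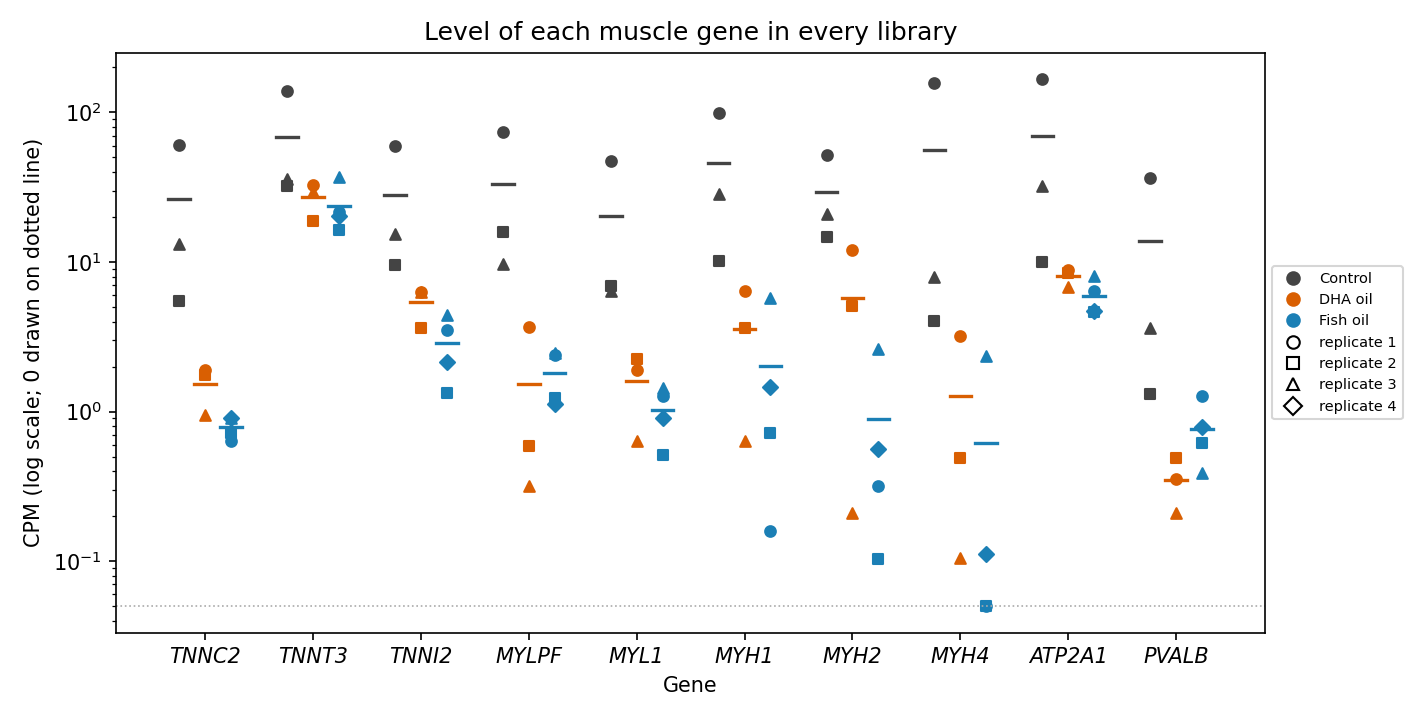
CPM (vertical axis, log scale) of each of the 10 genes (horizontal axis) in every library. Colours give the diet, marker shapes the replicate and short lines the arithmetic mean of a diet, and a value of 0 is drawn on the dotted line. Control replicate 1 is the highest point for all 10 genes, and TNNT3 is the gene whose other controls overlap the oil-fed tumours.

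The myosin heavy chains, the motors of the fibre, varied most among oil-fed tumours. MYH1 encodes the IIx chain. It had 99.8, 10.2 and 28.5 CPM in control, 6.38, 3.62 and 0.632 CPM in DHA oil and 0.160, 0.722, 5.73 and 1.46 CPM in fish oil. DHA oil replicate 1 and fish oil replicate 3 came nearest to the controls and fish oil replicate 1, with 1 count, was the lowest. MYH2, the IIa chain, had 52.3, 14.6 and 20.9 CPM in control, 12.1, 5.08 and 0.211 CPM in DHA oil and 0.320, 0.103, 2.61 and 0.563 CPM in fish oil. DHA oil replicate 1 lay just under control replicate 2, while DHA oil replicate 3 was among the fish oil tumours. MYH4 encodes the IIb chain, the fastest, abundant in mouse limb muscle and little used in human limb muscle. It had 157, 4.05 and 7.88 CPM in control, 3.19, 0.489 and 0.105 CPM in DHA oil, and 2.35 and 0.113 CPM in fish oil replicates 3 and 4. In fish oil replicates 1 and 2 it had 0 counts, which allows up to 0.480 and 0.310 CPM (limit of 3 counts). The level of MYH2 spanned 117-fold among the 7 oil-fed tumours and that of MYH1 39.9-fold, against 2.95-fold for TNNC2 and 1.91-fold for ATP2A1, with 1 count in the lowest tumour for either myosin.

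The 3 heavy chain genes did not keep 1 ratio to each other. MYH4 made up 50.7% of the counts of MYH1, MYH2 and MYH4 together in control replicate 1 (95% exact Clopper-Pearson interval 48.9 to 52.6, of 2911 counts). The share was 14.0% in control replicate 2 (9.73 to 19.3, of 221 counts), 13.8% in control replicate 3 (10.6 to 17.5, of 414 counts) and 14.8% in DHA oil replicate 1 (9.95 to 20.7, of 183 counts). Control replicate 1 thus held a larger part of MYH4 than the next 3 tumours, by more than counting error, which is all these intervals cover. MYH2 went the other way. Its share was 16.9% in control replicate 1 (15.6 to 18.3), 50.7% in control replicate 2 (43.9 to 57.4), 36.5% in control replicate 3 (31.8 to 41.3), 55.7% in DHA oil replicate 1 (48.2 to 63.1) and 55.3% in DHA oil replicate 2 (44.7 to 65.6, of 94 counts). In fish oil replicate 3, the fish oil tumour with the most heavy chain counts (82), the shares were 53.7% for MYH1 (42.3 to 64.7), 24.4% for MYH2 (15.6 to 35.1) and 22.0% for MYH4 (13.6 to 32.5). The other 4 tumours had 3 to 19 such counts, too few to place their shares. These shares compare the same gene between libraries. They depend on gene length as well, so no order of the chains within a library is read from them.

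**Figure D3:**
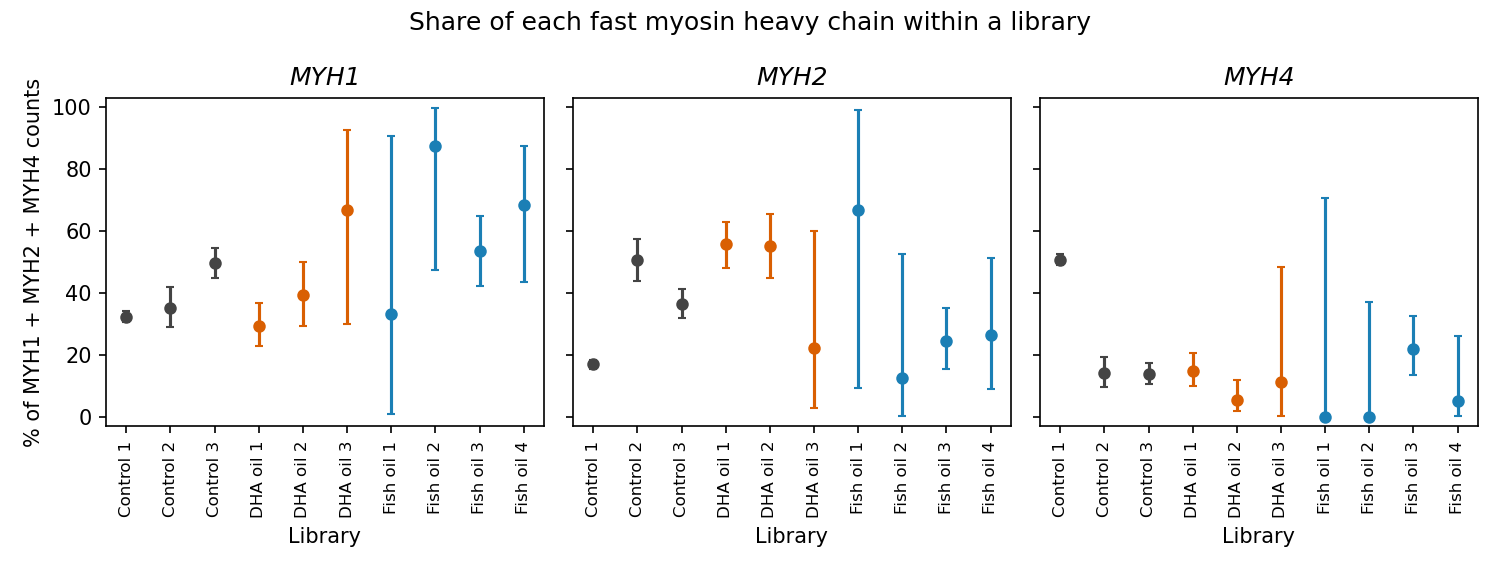
Share of MYH1, MYH2 and MYH4 in their summed counts (vertical axis, percent) in each library (horizontal axis). Bars are 95% exact Clopper-Pearson intervals, which cover counting error only. MYH4 holds 50.7% in control 1 and 14.0% and 13.8% in controls 2 and 3.

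The start regions of the host's own heavy chain genes are shown because the ratio of these 3 genes to each other shifted between tumours. They are the mouse counterparts, matched by symbol, in the RefSeq annotation of GRCm38.p6, each covering 250 bases before to 50 bases after the gene's start, on the + strand of chromosome 11. Myh1 is at chr11:67199852-67200151, Myh2 at chr11:67170777-67171076 and Myh4 at chr11:67237562-67237861. Capitals mark matches to the MEF2 consensus (10 bases, A/T-rich, bound by the MEF2 factors of muscle) and to the E-box CAGCTG, a site type of the MyoD family, searched on both strands. No match of one overlapped a match of the other.
Myh1: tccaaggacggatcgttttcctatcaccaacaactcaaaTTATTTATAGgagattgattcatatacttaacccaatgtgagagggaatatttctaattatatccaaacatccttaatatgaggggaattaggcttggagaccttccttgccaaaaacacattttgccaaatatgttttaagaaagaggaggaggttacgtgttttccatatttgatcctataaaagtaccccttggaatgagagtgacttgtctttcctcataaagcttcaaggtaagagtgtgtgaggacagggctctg
Myh2: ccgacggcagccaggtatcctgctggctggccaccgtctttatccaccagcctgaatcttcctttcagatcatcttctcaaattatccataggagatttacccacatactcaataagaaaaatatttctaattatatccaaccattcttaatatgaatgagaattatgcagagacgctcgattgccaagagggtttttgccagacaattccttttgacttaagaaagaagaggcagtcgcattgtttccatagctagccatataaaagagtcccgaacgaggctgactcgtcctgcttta
Myh4: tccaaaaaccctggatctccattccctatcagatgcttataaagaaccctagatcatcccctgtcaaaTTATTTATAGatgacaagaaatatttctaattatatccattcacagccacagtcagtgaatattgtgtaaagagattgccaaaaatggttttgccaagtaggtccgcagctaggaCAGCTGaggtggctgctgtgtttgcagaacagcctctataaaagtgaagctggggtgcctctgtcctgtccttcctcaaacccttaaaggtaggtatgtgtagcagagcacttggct
Myh1 and Myh4 each held 1 MEF2 match, starting at positions -211 and -182 from the gene's start, and Myh4 also held CAGCTG at position -67. Neither motif was matched in the Myh2 window. Of 32851 mouse windows of this length in the same table, 3.19% held the MEF2 consensus and 16.3% held CAGCTG. Windows were found for 8 of the 10 genes (not Tnnt3 or Tnni2), 9 windows in all, of which 3 held the MEF2 consensus and 4 held CAGCTG. A match describes the letters of the window and says nothing of binding in these tumours.

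The heavy chains are close copies of each other, which limits how well short reads can be assigned. In mouse transcripts of GENCODE M21, 16.6% of all 75-base windows of the longest coding transcript of Myh1 occur unchanged in another gene. The share was 16.3% for Myh2 and 9.68% for Myh4. These are shares between mouse genes. Sharing between the human genes that were counted, or between mouse reads and human genes, was not measured. The other genes were neighbouring myosins (Myh1, Myh2, Myh3, Myh4, Myh8 and Myh13). For Myl1 the share was 16.6%, all with the pseudogene Mylf-ps, and for Tnnc2, Tnnt3, Tnni2, Mylpf, Atp2a1 and Pvalb it was 0. How the authors' counting treated reads that match several genes is not given in the sources used here, and the counts of MYH1, MYH2 and MYH4 are uncertain in that respect.

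The calcium-handling genes differed in how far they went down. ATP2A1 encodes SERCA1, the pump that returns calcium to the sarcoplasmic reticulum. It had 166, 10.1 and 32.4 CPM in control, 8.87, 8.41 and 6.85 CPM in DHA oil and 6.40, 4.64, 8.08 and 4.73 CPM in fish oil. The groups did not overlap, but control replicate 2 was only just above DHA oil replicate 1. PVALB encodes parvalbumin, a soluble calcium buffer that speeds relaxation and is also made by some neurons. It had 36.3, 1.31 and 3.59 CPM in control, 0.355, 0.489 and 0.211 CPM in DHA oil and 1.28, 0.619, 0.391 and 0.788 CPM in fish oil. Control replicate 2, with 10 counts, and fish oil replicate 1, with 8, were almost level, and no oil-fed tumour had more than 8 counts.

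TNNT3 and ATP2A1 together took a larger share of the summed counts of the 10 genes in every oil-fed tumour than in the controls. The rise came from TNNT3. Its own share was 15.6%, 29.2% and 20.7% in control replicates 1 to 3 and 41.5% to 64.6% in the oil-fed tumours. ATP2A1 alone held 18.7%, 9.13% and 18.6% in control and 11.5% to 18.7% in the oil-fed tumours. The 2 genes together made up 34.2% in control replicate 1, 38.3% and 39.3% in control replicates 2 and 3, 53.9%, 60.2% and 79.5% in DHA oil replicates 1 to 3, and 74.4%, 80.0%, 68.9% and 75.7% in fish oil replicates 1 to 4. The heavy chains went the opposite way, from 34.6%, 26.2% and 32.9% in control to 27.9%, 20.4% and 2.07% in DHA oil and 1.28%, 3.14%, 16.4% and 6.51% in fish oil. The genes as a set were thus not scaled up and down by 1 common factor. Without TNNT3 and ATP2A1, the summed level of the other 8 was 586, 68.0 and 105 CPM in control, 35.7, 17.9 and 9.37 CPM in DHA oil and 9.61, 5.26, 20.3 and 7.99 CPM in fish oil.

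The size of the step between tumours also differed by gene. From the mean of control replicates 2 and 3 to control replicate 1, MYH4 was 26.3 times higher and PVALB 14.8 times. ATP2A1 (7.84), MYL1 (7.11), TNNC2 (6.47), MYLPF (5.82), MYH1 (5.16), TNNI2 (4.76) and TNNT3 (4.06) lay between 4 and 8 times, and MYH2 was the smallest step at 2.95 times. From the mean of the 7 oil-fed tumours to that of control replicates 2 and 3, TNNC2 (8.38 times), MYLPF (7.56) and MYH1 (7.23) had the widest steps, and ATP2A1 (3.09) and TNNT3 (1.36) the narrowest. The order of the genes was therefore not the same in both steps.

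**Figure D4:**
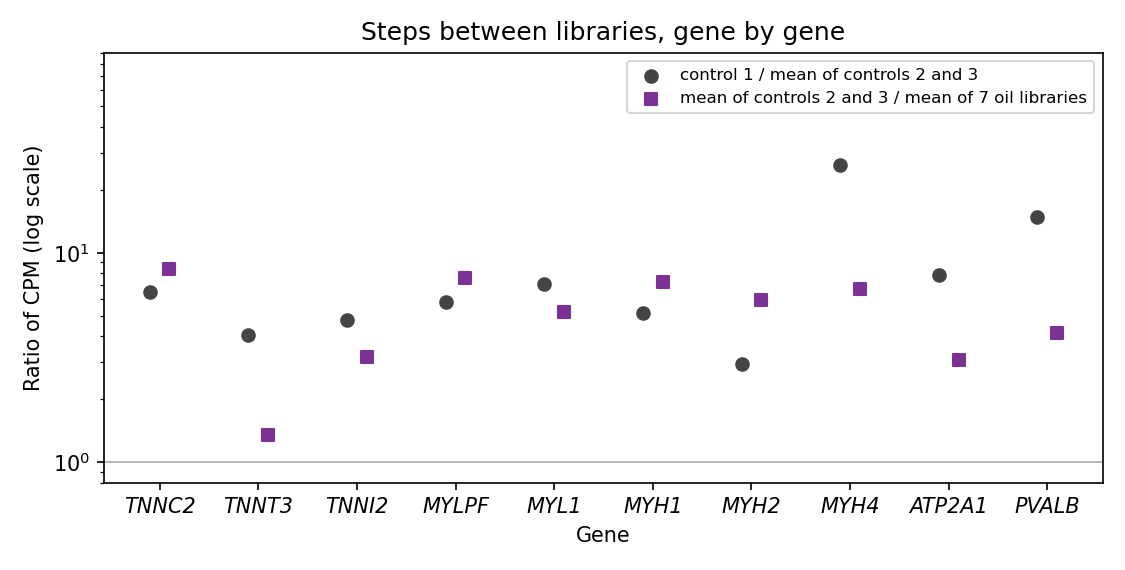
Ratio of CPM (vertical axis, log scale) for each gene (horizontal axis). Circles are control 1 over the mean of controls 2 and 3, and squares are that mean over the mean of the 7 oil-fed tumours. MYH4 has the largest first ratio (26.3) and TNNC2 the largest second ratio (8.38).

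The order of the tumours from gene to gene is in part fixed by the choice of the genes, which set control above oil-fed tumours, so only the order within a diet or among the oil-fed tumours bears on whether they moved together. Control replicate 1 was the highest of 10 libraries for all 10 genes, which held for 6.88% of the 16013 genes that passed the filter on low counts. That lead is an order over all diets, in genes chosen for high control levels. It is therefore in part built in and is not read as the genes moving together. All 10 genes passed that filter. Control replicate 3 ranked between 2 and 3 for each of the 10, with a mean rank of 2.30, and control replicate 2 ranked between 2 and 5. Kendall's W is 1 when every gene orders the libraries in the same way. It was 0.840 within control, 0.490 within DHA oil, 0.516 within fish oil and 0.434 over the 7 oil-fed libraries. The value within control includes the lead of control replicate 1 for every gene. Over all 10 libraries it was 0.785, a value that includes the difference the genes were chosen for. All these values of W include TNNC2, MYH4 and PVALB, which passed the filter only through the controls. The order of the oil-fed tumours for these genes rests on few counts. Among the 7 oil-fed libraries, DHA oil replicate 1 was the highest for 6 of the 10 genes and had the best mean rank (1.80), followed by fish oil replicate 3 (2.80). Fish oil replicate 3 was the highest of the fish oil tumours for 9 of the 10 genes, all but PVALB, where 19.8% of all genes tested had it highest. For TNNC2 that lead was 0.912 against 0.901 CPM in fish oil replicate 4, on 7 against 8 counts. For MYLPF it was 2.48 against 2.40 CPM in fish oil replicate 1. Both leads are too small to read, and the lead for MYH4 is one of 18 counts against at most 1. DHA oil replicate 3 was the lowest of its diet for 8 of the 10, all but TNNT3 and TNNI2, where 33.9% of all genes tested had it lowest. For PVALB this was 2 counts against 3 in DHA oil replicate 1, and for MYH4 it was 1 against 5 in DHA oil replicate 2. PVALB ordered the oil-fed tumours differently from the rest, on counts of 2 to 8.

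Both oils together against control is the comparison behind the choice of the genes, and its values are given without further reading. In the quasi-likelihood test of edgeR, adjusted by Benjamini-Hochberg over all genes, 9 of the 10 genes were called lower (adjusted p under 0.05), where 0.131% of all 16013 genes tested were, and TNNT3 was not (adjusted p = 0.439). At an unadjusted p under 0.05 there were 10 of the 10, against 2.62% of all genes tested. Log2 fold changes ran from -6.05 for MYH4 to -1.46 for TNNT3, with a median of -4.06 against 0.0016 over all genes tested. The estimates were -4.57 ± 0.53 for TNNC2, -2.88 ± 0.44 for TNNI2, -4.38 ± 0.57 for MYLPF and -4.00 ± 0.55 for MYL1 (SE). They were -4.12 ± 0.63 for MYH1, -3.71 ± 0.63 for MYH2, -3.34 ± 0.52 for ATP2A1 and -4.72 ± 0.75 for PVALB (SE). All 7 oil-fed tumours lay below every control for 9 of the 10 genes, which was so for 0.662% of all genes tested, and the same 9 lay below control replicates 2 and 3 taken alone, which was so for 2.16% and follows from control replicate 1 being the highest for each.

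Control replicate 1 set much of these sizes. Without it the median log2 fold change of the 10 genes was -2.59, that of MYH4 went from -6.05 to -2.79 and that of TNNT3 from -1.46 to -0.44, and 1 of the 10, TNNC2, was still called (adjusted p = 0.00778, and 1.23e-14 to 0.164 over all alternatives). The fit without control replicate 1 called 3 of 16212 genes in all. The number called among the 10 also went to 3 without DHA oil replicate 2 (6 of 16197 genes in all), fish oil replicate 2 (4 of 15850) or fish oil replicate 4 (5 of 15867). It went to 4 without DHA oil replicate 3 (8 of 16241). Median log2 fold changes in these 4 fits lay between -4.16 and -3.84. For both oils DESeq2 called 5 of the 8 genes to which it gave a p-value (27 of 16013 genes in all). It gave none for MYL1 and MYH4, so the large MYH4 value has no DESeq2 test beside it. Limma-voom called 0 of the 10 (1 of 16013).

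Each oil singly against the same 3 controls uses the difference the genes were chosen for, so these values too are a description and support nothing. In DHA oil 0 of the 10 were called by edgeR (background 0%), 10 of the 10 had an unadjusted p under 0.05 (2.74% of all genes tested did), and the median log2 fold change was -3.70. DESeq2 called 3 of the 8 genes with a p-value there (11 of 16013 genes in all) and limma-voom 0 of the 10 (3 of 16013). With control replicate 2 left out, edgeR called 3 of the 10 (5 of 16388 in all). In fish oil 1 of the 10 was called, TNNC2 at -5.03 ± 0.69 (log2 fold change with SE; adjusted p = 0.0456; background 0.00624%). All 10 had an unadjusted p under 0.05 (3.48% of all genes tested did), and the median was -4.29. DESeq2 called 5 of the 8 genes with a p-value (20 of 16013 genes in all) and limma-voom 0 of the 10 (0 of 16013). Leaving out 1 control changed the edgeR count to 9 (control replicate 2, 22 of 16388 genes in all) or 8 (control replicate 3, 19 of 16395). Leaving out 1 DHA oil tumour changed it to 3 (replicate 1, 6 of 16394) or 2 (replicate 3, 4 of 16241). It went to 0, as did the count over all genes, when DHA oil replicate 2 or any fish oil tumour was omitted. The same held under scaling by library totals alone.

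Whether the oils differed from each other was not part of the choice of the genes and was tested. Only 7 of the 10 genes passed the filter on low counts in the oil-fed tumours alone. TNNC2, MYH4 and PVALB passed it through the controls, so their values between the oils rest on few counts. In fish oil against DHA oil edgeR called 0 of the 10, as it called 0% of all genes tested. DESeq2 called 0 of the 8 genes with a p-value (1 of 16013 genes in all) and limma-voom 0 of the 10 (0 of 16013). At an unadjusted p under 0.05 in edgeR there was 1 gene of the 10, against 4.84% of all genes tested. That gene was MYH2, for which DHA oil had 5.78 ± 5.96 CPM (SD, n = 3) and fish oil 0.898 ± 1.15 CPM (SD, n = 4). Its log2 fold change was -2.69 ± 0.93 (SE; 95% interval -4.67 to -0.71; adjusted p = 0.875, edgeR). All 4 fish oil tumours were below the DHA oil mean, but DHA oil replicate 3, at 0.211 CPM, was below 3 of them. Without DHA oil replicate 1 the log2 fold change was -1.61, and without fish oil replicate 3 it was -4.08. MYH2 was called by edgeR when no filter on low counts was applied (adjusted p = 0.0217), a setting that called 14 of 26038 genes in all. It was called in no other alternative, where the adjusted p was at least 0.418.

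For the other 9 genes the interval of the difference between the oils included 0, and most intervals were wide. It was narrowest for TNNT3, at -0.19 (-1.11 to 0.73), and for TNNI2, at -0.95 (-2.21 to 0.31). ATP2A1 had -0.44 (-1.92 to 1.03), TNNC2 -0.92 (-2.82 to 0.98), MYL1 -0.67 (-2.51 to 1.17) and MYH1 -0.79 (-2.81 to 1.23). MYH4 had the widest, at -0.998 (-5.11 to 3.12). MYLPF at 0.27 (-1.68 to 2.22) and PVALB at 1.04 (-1.91 to 3.99) were the 2 genes with a higher estimate in fish oil. The median over the 10 was -0.73, against 0.01 over all genes tested. In a fit of the oil-fed tumours alone, the median over the 7 genes that passed the filter there was -0.66. That fit called 0 of the 7 (0 of 15800 genes in all). Only TNNC2 had every fish oil tumour below every DHA oil tumour, by 0.912 against 0.948 CPM at the closest, which is 7 against 9 counts, a pattern that 2.08% of all genes tested showed. That gap is too small to read at this depth.

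**Figure D5:**
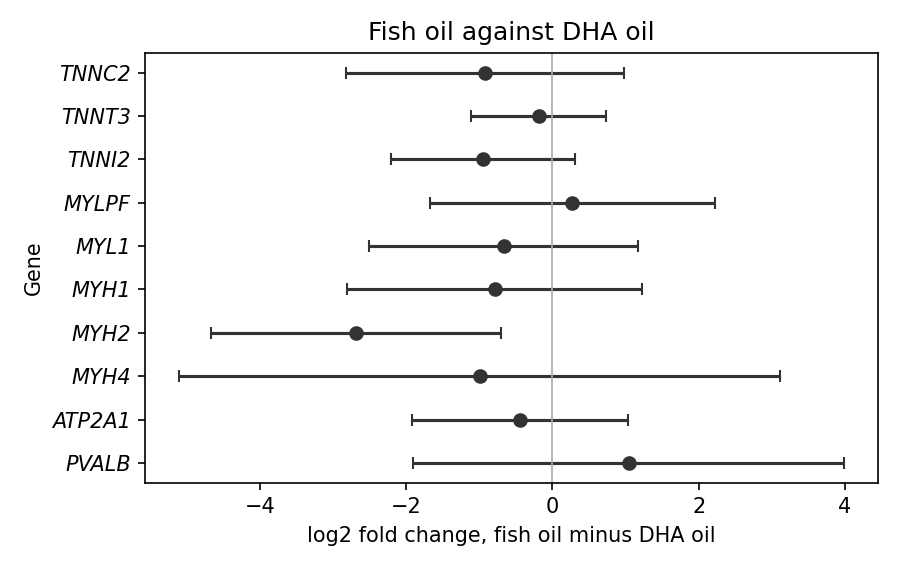
Log2 fold change of fish oil against DHA oil (horizontal axis) for each gene (vertical axis), with 95% intervals from edgeR's quasi-likelihood fit of all 10 libraries. The interval of MYH2 (-4.67 to -0.71) lies below 0, and those of the other 9 genes include 0.

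The genes outside the 10 whose pattern was most like theirs were taken by Pearson's r with the mean log2 CPM of the 10 over the 10 libraries, among 15935 other genes. No table at hand pairs human identifiers with names, so the first 2 are given by identifier only. ENSG00000143318 had r = 0.980 (Spearman's rho 0.976), with 23.7 CPM in control replicate 1 while the means ± SD were 10.2 ± 11.6 CPM (control), 1.498 ± 0.571 CPM (DHA oil) and 0.829 ± 0.230 CPM (fish oil). ENSG00000197616 had r = 0.971 (Spearman's rho 0.903), with 13.3 CPM in control replicate 1 while the means ± SD were 7.01 ± 5.41 CPM (control), 2.34 ± 0.698 CPM (DHA oil) and 1.48 ± 0.602 CPM (fish oil). Without control replicates 1 and 3, the tumours farthest from the median, r was 0.924 and 0.939. In all, 17 genes reached r of 0.9 or more. They were picked as the highest of many, so r describes the choice and has no p. Each r also includes the difference between control and oil-fed tumours for which the 10 genes were chosen. Leaving out control replicates 1 and 3 still keeps control replicate 2. No r was taken within the oil-fed tumours alone.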

How the data were processed

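Per the labels' protocols, stranded poly(A) mRNA libraries were read as single 75 bp ends. The authors deposited raw counts of reads per human Ensembl gene, and the submitters' processing notes name STAR, GRCh38 and HTSeq 0.9.0. No source used here gives the annotation release, the strand setting or the handling of mouse and multiply matching reads. Groups came from the sample titles. The 10 genes, and the lists made for this work, were chosen with earlier results of these data known. The 15 marker lists (172 symbols) could not be used, because the reference name tables matched 0 of 33538 identifiers, so the tumour cells and host cell types were not checked by markers. The genes to be named were the 10, plus the first 2 identifiers by likeness of pattern (mean log2 CPM of at least 0).

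The filter filterByExpr (minimum count 10) kept 16013 genes. After TMM scaling, 1 model with diet alone was fitted to all 10 libraries (edgeR 4.0.16, R 4.3.3). Its quasi-likelihood F test was adjusted by Benjamini-Hochberg over those genes (threshold 0.05). The SE of a log2 fold change is its absolute value over the square root of F. CPM uses the TMM-scaled total, and log2 CPM a prior count of 2. The test was checked on simulated counts, with 100 genes changed 2-fold and 100 changed 4-fold. Depending on the comparison it recovered 66% to 75% of the 2-fold changes and 95% to 98% of the 4-fold changes. False calls ran from 5 of 166 (DHA oil against control) to 12 of 183 (fish oil against DHA oil). Each gene had 1 mean level per group, so no simulated library stood apart over many genes as control replicate 1 did. The check does not cover that case. Alternatives used DESeq2 1.42.0 and limma 3.58.1, where limma-voom always means voom with quality weights for the libraries. Intervals of shares and limits on counts of 0 cover counting error only. No pair of libraries agreed within sampling noise (smallest chi-square per degree of freedom 4.55). No batch is given in the labels.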

Additional observations from a re-analysis of the deposited data

Results flagged for a closer look

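Fish oil, the one diet with 4 libraries, was searched for single outlying tumours over 11 measures (the 10 genes and their summed level). Chance flags about 1 in 20 for each single measure where values spread normally, and 11 were searched. MYH4 in fish oil replicate 3 was flagged, at 2.35 CPM against 0 to 0.113 CPM in the other 3 fish oil tumours, a gap of 0.952 of the range. These are 18 counts against 0, 0 and 1, and MYH4 passed the filter on low counts only through the controls. The counts of 0 allow up to 0.480 and 0.310 CPM in fish oil replicates 1 and 2. With the other values at the floor, a single higher value readily leaves a wide gap. The 1 in 20 therefore does not apply to MYH4, and its flag is not read further. MYH2 in the same tumour came close, at 2.61 CPM against 0.103 to 0.563 CPM, a gap of 0.816 where 0.829 is needed. The cause was not tested.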

How the results depend on the processing

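The log2 fold changes of the 10 genes with both oils against control kept their direction under every alternative run, and those of fish oil against DHA oil did so except for MYLPF, at -0.14 and -0.22 when DHA oil replicate 2 or 3 was left out (-0.22 to 1.91 over all libraries left out in turn), and MYH4, at 0.93 without DHA oil replicate 1 (-4.46 to 0.93). The number of the 10 genes called depended on the tool and the filter. With no filter on low counts it was 1 for fish oil against DHA oil, where 14 of 26038 genes were called in all. It was 10 for each of DHA oil (57 of 26038 in all) and fish oil (56 of 26038) against control. Calling over all genes thus rose as well under this setting, from 0, 0 and 1 of 16013 in the main fit. DESeq2 called 5 for both oils, 3 for DHA oil and 5 for fish oil against control, with an NA for 2 genes kept as NA. For both oils these were MYL1 and MYH4. Limma-voom called 0 for both oils and 0 for fish oil against control. Scaling by library totals alone gave 0 for fish oil against control, and a fit of only the groups compared gave 3 (7 of 15511 genes in all). Leaving out each library in turn gave 0 to 0 for fish oil against DHA oil, 1 to 9 for both oils, 0 to 3 for DHA oil alone and, for fish oil alone, 0 to 9. The log2 ratio of the summed level ran from -3.50 to -1.60 for the oils against control and from -0.80 to -0.16 for fish oil against DHA oil. The cause of these shifts was not tested.

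Deviations of same-numbered tumours from their diet means had correlations from -0.17 to 0.18. Tumours with different numbers were not compared, so these values cannot settle whether the numbers pair tumours. With the replicate number as a block, 6 of the genes were called for both oils against control (12 of 16013 genes in all). There was 1 for DHA oil (1 of 16013) and 0 for fish oil (0 of 16013) against control. Between the oils 0 were called (0 of 16013), and MYH2 had a log2 fold change of -2.23. Other scaling moved the median log2 fold change of all genes by at most 0.03. For both oils against control, a fit of only the groups compared is the same fit. Counts under 10 in most oil-fed tumours limit what can be read for TNNC2, MYL1, MYH2, MYH4 and PVALB.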
